A study of Mus musculus with 6 samples.

Results

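The genes examined were 9 markers of neural stem cells, progenitors and new neurons, taken as a fixed list by name from the 37315 gene identifiers of the count files. They were *Nes* and *Sox2* for neural stem cells, *Mki67* and *Top2a* for dividing cells, *Eomes* for intermediate progenitors, and *Neurod1*, *Dcx*, *Sox11* and *Igfbpl1* for neuroblasts and newly formed neurons. All 9 were found, and all 9 had enough counts to be tested in every pair of libraries. Hippocampi were taken at 4 weeks of age, from mice on the C57BL/6J background, and RNA-seq counts of 6 libraries were used, 1 for each of 6 groups. In the Nestin-Cre pair, mice with both *Prrc2a* alleles floxed (*Prrc2a* f/f) were set against *Prrc2a* f/f; Nestin-Cre mice. In the Olig2-Cre pair, *Prrc2a* f/f mice were set against *Prrc2a* f/f; Olig2-Cre mice. In the Fto pair, wild-type (WT) mice were set against mice with an *Fto* transgene (Fto Tg). All mice of both *Prrc2a* pairs therefore carried floxed alleles, controls included, although sample titles call those controls WT. Nestin-Cre recombines in neural progenitors, so neurons and glia that descend from them carry the deletion too. Olig2-Cre acts in the oligodendroglial lineage, and the study describes a reduced *Olig2* dose in mice with this driver. No library came from Cre mice that kept an unfloxed *Prrc2a* allele, so effects of the deletion and of either driver cannot be told apart. In other experiments the study used such littermates as controls for the Nestin-Cre transgene. The *Fto* transgene was delivered with a lentiviral vector under the ubiquitin C promoter. Whether a library came from a single mouse or from pooled tissue was not given in the sources used here. The RNA modification N6-methyladenosine (m6A) is bound by Prrc2a and removed by Fto.

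The dentate gyrus of the hippocampus makes new granule neurons after birth. Radial glia-like stem cells, which contain the intermediate filament nestin and the transcription factor Sox2, divide and give rise to intermediate progenitors that transiently express Eomes (Tbr2). Their progeny pass through a neuroblast stage marked by Neurod1, Dcx and Sox11 before they mature. At the age sampled this process is active, but its cells are a small part of the tissue. Sox2 is also present in astrocytes and oligodendrocyte progenitors, and nestin in some vessel cells. In bulk counts of whole hippocampus, fewer cells of a type and less RNA per cell cannot be told apart.

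The 9 genes lie on 8 chromosomes (GRCm38, the assembly also called mm10). *Nes* (ENSMUSG00000004891) is at chr3:87971078-87980451 on the plus strand and *Sox2* (ENSMUSG00000074637) at chr3:34650405-34652461 on the plus strand. *Mki67* (ENSMUSG00000031004) is at chr7:135689784-135716361 and *Top2a* (ENSMUSG00000020914) at chr11:98992943-99024189, both on the minus strand. *Eomes* (ENSMUSG00000032446) is at chr9:118478212-118486132 on the plus strand. *Neurod1* (ENSMUSG00000034701) is at chr2:79452521-79456751, *Dcx* (ENSMUSG00000031285) at chrX:143855842-143933311, *Sox11* (ENSMUSG00000063632) at chr12:27334264-27342574 and *Igfbpl1* (ENSMUSG00000035551) at chr4:45809468-45826923, all on the minus strand. Exons of 3 of these genes overlap other annotated genes, and the counting did not use strand. *Neurod1* shares 355 exon bases with *Cerkl* and the antisense gene *Gm26755*, *Eomes* shares 118 with the antisense gene *Gm33460*, and *Top2a* shares 122 with *Gm23451*. Reads from those bases cannot be told apart, and reads over more than 1 gene of the annotation used were left uncounted. The overlaps given here are those of GENCODE M21, whereas the study counted reads on an Ensembl release. Whether that release held the same overlaps was not checked.

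GGAC followed by T, GGACU in RNA, is a common sequence around m6A, and it is shown here because the altered proteins read or remove that mark. The search covered the sense strand of the longest annotated coding sequence (GENCODE M21 transcripts). The motif occurred in 8 of the 9 genes, and in 72.4% of 21570 protein-coding genes. Per kilobase of coding sequence there were 2.79 copies in *Neurod1*, 2.53 in *Sox11*, 1.88 in *Eomes*, 1.82 in *Dcx*, 1.79 in *Nes*, 1.23 in *Igfbpl1*, 0.872 in *Top2a* and 0.839 in *Mki67*. *Sox2* had 0 copies in 960 coding bases, and the median of all genes was 1.04 per kilobase. The first copy with 20 coding bases on either side is given 5′ to 3′ for 5 genes, with the motif in capitals. These are the genes with a motif whose ratio of CPM in the Nestin-Cre pair was larger than between any controls. The motif starts at coding base 124 in *Nes*, 881 in *Mki67*, 150 in *Neurod1*, 117 in *Sox11* and 482 in *Igfbpl1*, counted from 1 at the start codon. Whether these copies are methylated was not measured here.
Nes: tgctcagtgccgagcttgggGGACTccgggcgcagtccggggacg
Mki67: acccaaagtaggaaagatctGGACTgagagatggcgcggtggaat
Neurod1: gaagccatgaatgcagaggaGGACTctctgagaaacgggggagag
Sox11: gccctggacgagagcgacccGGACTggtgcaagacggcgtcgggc
Igfbpl1: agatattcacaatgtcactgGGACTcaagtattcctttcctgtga

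*Mki67* and *Top2a* are both transcribed in dividing cells, yet their counts moved apart in the Nestin-Cre pair. Their promoters are shown side by side, but whether promoter sequence has a part in that difference was not tested. The windows run from 250 bases before to 50 bases after the start (RefSeq, GRCm38.p6), and 8 of the 9 genes were matched. CCAAT boxes, on either strand as CCAAT or ATTGG, are in capitals. *Top2a* has 6 of them and *Mki67* has 3, *Eomes* has 2, and *Sox2*, *Sox11* and both windows of *Dcx* have 1 each. At least 1 box occurred in 37.4% of 32851 such windows, and *Nes* and *Neurod1* had 0. The GC content of the window was 72.7% for *Mki67* and 47.7% for *Top2a*, against a median of 52.7%. The *Mki67* window is chr7:135716330-135716629 and the *Top2a* window is chr11:99024140-99024439, both on the minus strand.
Mki67: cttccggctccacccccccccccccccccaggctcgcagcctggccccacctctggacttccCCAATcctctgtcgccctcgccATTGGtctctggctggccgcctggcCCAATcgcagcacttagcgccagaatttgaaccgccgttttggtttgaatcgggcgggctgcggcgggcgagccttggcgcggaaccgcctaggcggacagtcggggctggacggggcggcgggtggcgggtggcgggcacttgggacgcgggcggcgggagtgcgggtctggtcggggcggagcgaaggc
Top2a: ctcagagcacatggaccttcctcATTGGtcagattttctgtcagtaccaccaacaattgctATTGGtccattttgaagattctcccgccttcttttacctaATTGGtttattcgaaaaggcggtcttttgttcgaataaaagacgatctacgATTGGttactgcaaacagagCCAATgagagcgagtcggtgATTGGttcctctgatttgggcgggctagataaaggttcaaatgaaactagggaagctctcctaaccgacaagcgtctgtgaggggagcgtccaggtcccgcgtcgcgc

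Libraries held 18616540 to 35482589 counts, and levels are given as CPM, counts scaled by the library total. As a check of the labels, *Prrc2a* was at 434 CPM in f/f and 184 CPM in the Nestin-Cre library. That log2 ratio was -1.24, or -0.55 with TMM (trimmed mean of M-values) scaling. *Prrc2a* was at 389 and 346 CPM in the Olig2-Cre pair, and at 351 and 334 CPM in WT and Fto Tg, which carry no deletion, so the Olig2-Cre library was not below all undeleted ones. *Fto* was at 158 CPM in WT and 354 CPM in Fto Tg. The Nestin-Cre library stood apart from the others. Mitochondrially encoded genes took 26.2% of its counts and 7.97% to 8.86% elsewhere, and the mean GC content of its counted transcripts was 45.7% against 48.5% to 49.2%. Its ratios to f/f had a median of -0.72 (log2) over all 18170 genes tested, and -0.03 with TMM scaling. TMM adds 0.68 to every log2 ratio of this pair, and the value with TMM is given beside the ratios of CPM. Lists of mature granule and pyramidal neuron markers summed to 455 to 608 CPM and 4745 to 5682 CPM over the 6 libraries, and none of their genes was at 0 in an altered library.

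The levels of the 9 genes were first compared in the 3 controls, per kilobase of exon (RPKM). *Sox2* was highest at 22.8 ± 4.47 RPKM (SD, n = 3), followed by *Neurod1*, a basic helix-loop-helix factor of new granule neurons, at 8.95 ± 1.28. *Dcx*, a microtubule-binding protein of migrating neurons, was at 2.62 ± 0.612 RPKM and *Nes* at 2.29 ± 0.267. *Igfbpl1*, an insulin-like growth factor binding protein-like gene, was at 1.51 ± 0.270 and the transcription factor *Sox11* at 0.930 ± 0.387. The proliferation antigen *Mki67* was at 0.624 ± 0.0609, the DNA topoisomerase *Top2a* at 0.514 ± 0.0547 and *Eomes* at 0.462 ± 0.194 RPKM. In this order the control ranges of *Dcx* and *Nes* overlapped, as did those of *Igfbpl1* and *Sox11*, *Sox11* and *Mki67*, and *Top2a* and *Eomes*. The other neighbors did not overlap. The Nestin-Cre library had another order, with *Neurod1* at 15.8 RPKM above *Sox2* at 7.68 RPKM.

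**Figure D1:**
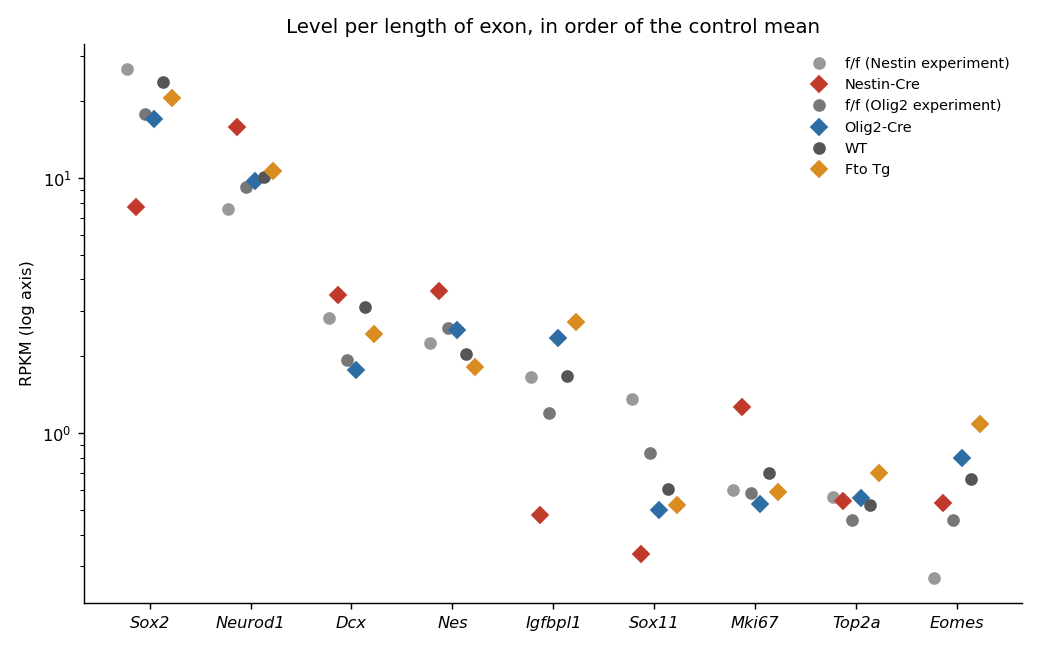
RPKM (CPM per kilobase of exon, log axis) of the 9 genes in each of the 6 libraries, ordered by the mean of the 3 controls; circles are controls and diamonds are altered libraries. *Sox2* led in every library except Nestin-Cre, where *Neurod1* at 15.8 RPKM stood above *Sox2* at 7.68 RPKM.

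The controls also showed how far these genes varied without a deletion or transgene. The SD of log2 CPM over the 3 controls was 0.14 for *Mki67*, 0.16 for *Top2a*, 0.17 for *Nes*, 0.21 for *Neurod1*, 0.27 for *Igfbpl1*, 0.30 for *Sox2* and 0.36 for *Dcx*. It was 0.59 for *Sox11* and 0.64 for *Eomes*, whose highest control was 2.25-fold and 2.43-fold above the lowest. Pairs of libraries were compared with the read test that the study used (FDR below 0.001 and at least 1.2-fold). It treats reads as a random sample and contains no variation between mice. Between the f/f libraries this test called 4 of the 9 genes, with 13.1% of all genes called. *Neurod1* was higher, and *Sox2*, *Dcx* and *Sox11* lower, in f/f of the Olig2-Cre experiment. Between WT and f/f of the Nestin-Cre experiment it called 3 of 9 (17.3% of all genes), *Eomes* and *Neurod1* higher and *Sox11* lower in WT. Between WT and f/f of the Olig2-Cre experiment it called 2 of 9 (7.20%), *Dcx* and *Sox2* higher in WT. In all, 9 calls arose between controls, none of them for *Nes*, *Mki67*, *Top2a* or *Igfbpl1*. Each control pair crosses experiments, so differences between mice and between experiments cannot be told apart.

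**Figure D2:**
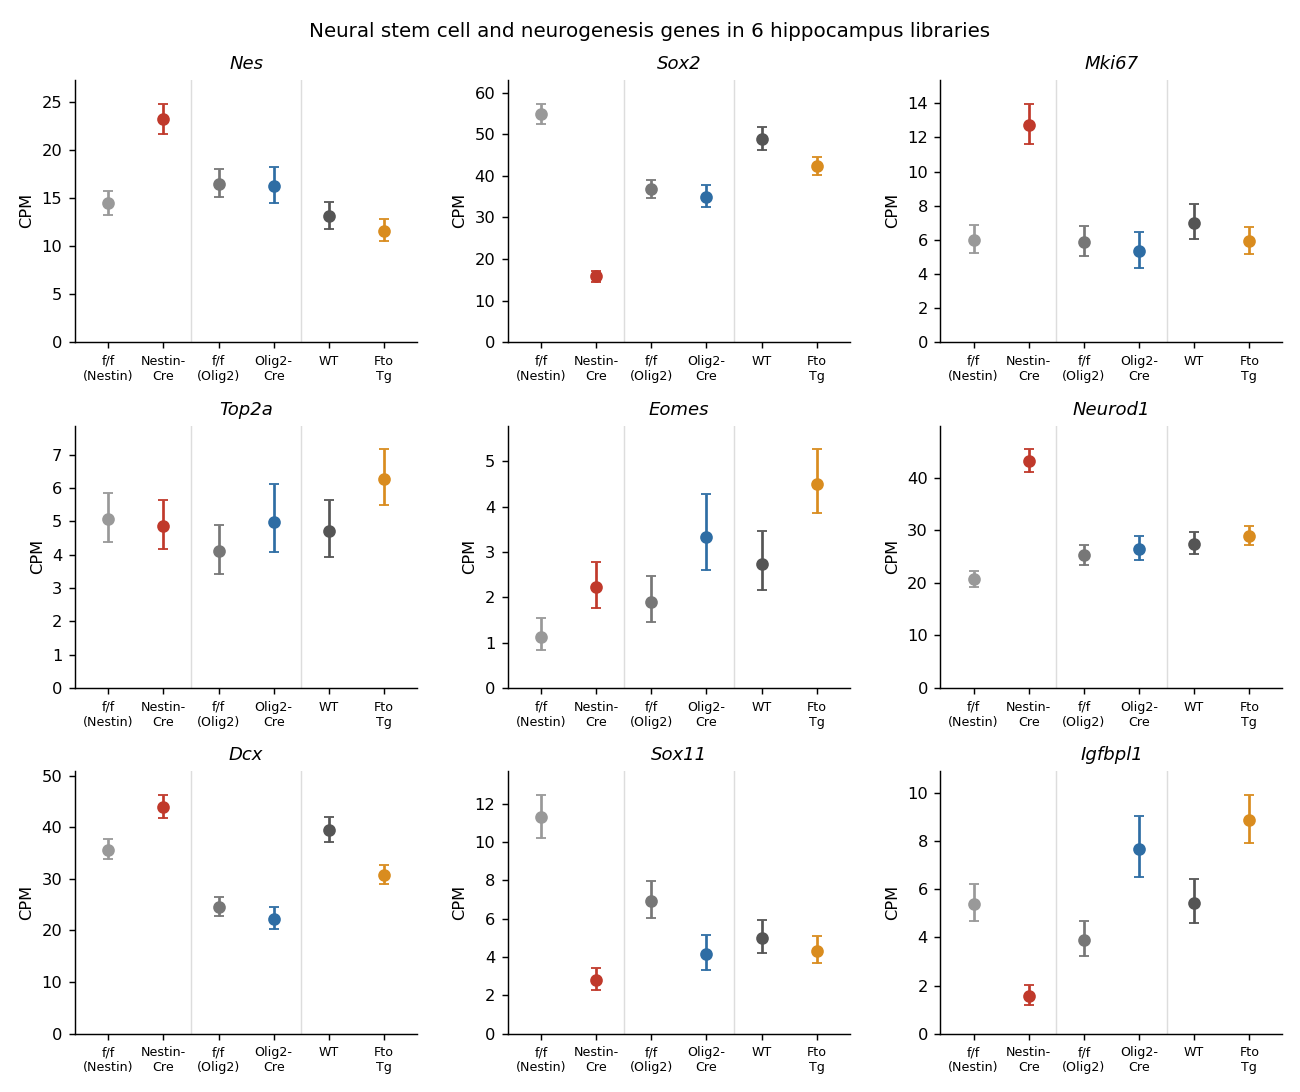
CPM of each gene (one panel a gene, axis from 0) in the 6 libraries, with Wilson 95% intervals that cover counting error only; gray points are controls, and vertical lines separate the 3 experiments. In the Nestin-Cre library *Nes*, *Mki67*, *Neurod1* and *Dcx* lay above all 3 controls, *Sox2*, *Sox11* and *Igfbpl1* below them, and *Top2a* and *Eomes* within their range.

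To find how stem cell and neurogenesis genes stood after *Prrc2a* deletion with Nestin-Cre, the libraries of this pair were compared. *Nes*, *Mki67*, *Eomes*, *Neurod1* and *Dcx* were called higher in the Nestin-Cre library, and *Sox2*, *Sox11* and *Igfbpl1* were called lower. The 5 genes called higher compare with 11.5% of all genes, the 3 called lower with 53.4%, and the 8 called in all with 64.9%. Genes of the same stage thus did not move together. Among the stem cell genes *Nes* was higher and *Sox2* lower, and among the neuroblast genes *Neurod1* and *Dcx* were higher and *Sox11* and *Igfbpl1* lower. With TMM scaling the split was 6 higher and 3 lower, and over all genes it went from 2097 higher and 9699 lower to 5185 and 5465. The median log2 ratio of the 9 genes was 0.30 (0.99 with TMM).

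Of the stem cell genes, *Nes* had 14.5 CPM in f/f of the Nestin-Cre experiment and 23.2 CPM with Nestin-Cre. It had 16.5 and 16.3 CPM in f/f and Olig2-Cre of the Olig2-Cre experiment, and 13.1 and 11.6 CPM in WT and Fto Tg. The Nestin-Cre library was thus the highest of all 6. Its log2 ratio to f/f was 0.68 (95% counting interval 0.52 to 0.84), and 1.36 with TMM. *Sox2* had 54.8 CPM in f/f and 15.8 CPM with Nestin-Cre, 36.8 and 35.0 CPM in the Olig2-Cre experiment, and 48.8 and 42.2 CPM in WT and Fto Tg. The Nestin-Cre value was less than every other library by a wide margin, with a log2 ratio of -1.80 (-1.94 to -1.66), or -1.11 with TMM. Both genes lay farther from f/f than any control lay from another.

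The dividing-cell genes also differed from each other. *Mki67* had 6.00 CPM in f/f and 12.7 CPM with Nestin-Cre, whereas the other 4 libraries had 5.86, 5.32, 6.98 and 5.90 CPM. Its log2 ratio was 1.08 (0.85 to 1.33), or 1.77 with TMM, the former against at most 0.25 between controls. *Top2a* had 5.07 CPM in f/f and 4.86 CPM with Nestin-Cre, 4.10 and 5.0 CPM in f/f and Olig2-Cre, and 4.72 and 6.28 CPM in WT and Fto Tg. Its ratio of -0.06 (-0.37 to 0.25) was not called, but it turned to 0.62 with TMM and 0.65 with DESeq2 size factors and was then called higher. The ratio of *Mki67* to *Top2a* within a library does not depend on scaling. Per length it was 2.35 (1.96 to 2.82) in the Nestin-Cre library and between 0.843 and 1.32 in the other 5, whose intervals reached at most 1.69.

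*Eomes* had few counts, 40 to 157 a library. It had 1.13 CPM in f/f (Wilson 95% interval 0.828 to 1.53) and 2.22 CPM (1.77 to 2.77) with Nestin-Cre, a log2 ratio of 0.97 (0.41 to 1.56), or 1.65 with TMM. The f/f library of this pair was the lowest of all 6, since the other controls had 1.89 and 2.74 CPM. Against f/f of the Olig2-Cre experiment the log2 ratio of the Nestin-Cre library was 0.22 and was not called.

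Among the neuroblast genes, *Neurod1* had 20.6 CPM in f/f and 43.1 CPM with Nestin-Cre, and 25.2, 26.5, 27.5 and 28.9 CPM in f/f, Olig2-Cre, WT and Fto Tg. The Nestin-Cre library was again the highest, with a log2 ratio of 1.06 (0.94 to 1.19), or 1.75 with TMM. *Dcx* rose less, from 35.7 CPM to 43.9 CPM, a log2 ratio of 0.30 (0.19 to 0.41), or 0.99 with TMM. Its other libraries had 24.5, 22.3, 39.4 and 30.8 CPM, and controls differed from each other by up to 0.68. *Sox11* fell from 11.3 CPM in f/f to 2.79 CPM, or by a log2 ratio of -2.01 (-2.35 to -1.69), or -1.32 with TMM. It had 6.92 and 4.14 CPM in f/f and Olig2-Cre and 5.0 and 4.33 CPM in WT and Fto Tg, so the highest and the lowest of the 6 libraries were those of the Nestin-Cre pair. *Igfbpl1* fell from 5.38 CPM in f/f to 1.55 CPM, or by a log2 ratio of -1.78 (-2.26 to -1.35), or -1.10 with TMM, against at most 0.48 between controls. The ratio of *Neurod1* to *Sox11* per length was 47.1 (38.3 to 58.4) with Nestin-Cre, 5.57 in its f/f control and 11.1 to 20.4 in the other 4 libraries. That of *Igfbpl1* to *Dcx* was 0.138 (0.103 to 0.181) with Nestin-Cre and 0.537 to 0.618 in the controls. These genes differ in GC content (55.7% and 40.6%), which such a ratio does not account for. After adjustment for GC content and exon length, described below, *Igfbpl1* was at -0.56 and *Dcx* at 0.17 in the Nestin-Cre pair, neither called.

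**Figure D3:**
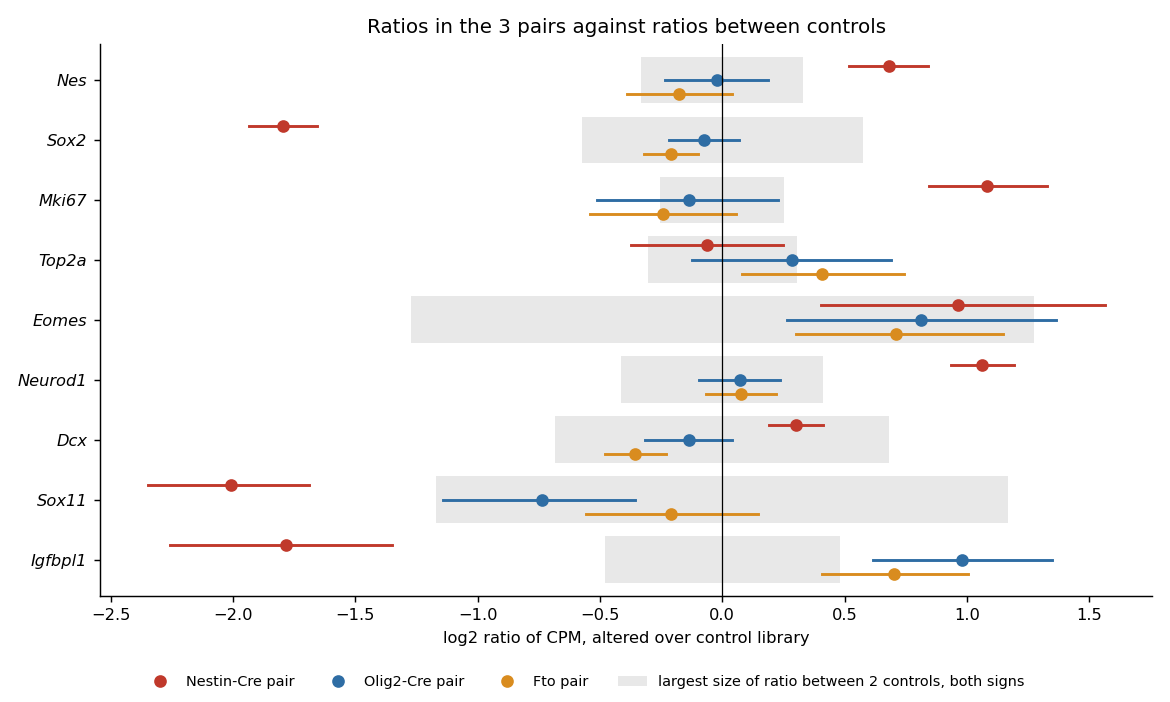
Log2 ratio of CPM in the 3 pairs (points, with 95% counting intervals as lines) for the 9 genes; gray bars span the largest size of a ratio between 2 controls, drawn to both sides of 0. Outside the bars lay 6 genes of the Nestin-Cre pair, *Igfbpl1* in the Olig2-Cre pair, and *Top2a* and *Igfbpl1* in the Fto pair.

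A ratio of CPM larger in size than between any controls was found for 6 of the 9 genes, against 77.6% of the 16979 genes tested in all pairs. The exceptions were *Top2a*, *Eomes* and *Dcx*. With TMM these were at 0.62, 1.65 and 0.99, larger than between any controls (sizes of at most 0.31, 1.26 and 0.67). The share of all genes with TMM was not counted. Ratios of the Nestin-Cre pair moved with base composition, so each gene was set beside genes of like GC content. The longest transcripts of *Nes* and *Igfbpl1* have similar GC contents of 55.5% and 55.7%, and genes within 1 percentage point of either had a median log2 ratio of -1.24. *Nes* at 0.68 was above that median and *Igfbpl1* at -1.78 below it. *Mki67* (46.6% GC) at 1.08 and *Sox11* (46.5% GC) at -2.01 compare with medians of -0.45 and -0.43. *Sox2* (50.5% GC) at -1.80 compares with -0.75, *Eomes* (53.9%) at 0.97 with -1.04, and *Neurod1* (43.6%) at 1.06 with -0.29. *Dcx* (40.6%) at 0.30 and *Top2a* (43.4%) at -0.06 were closer to their medians of -0.22 and -0.28, as was *Igfbpl1* to its median of -1.24. Genes of 54% to 56% GC had quartiles of -1.83 and -0.47, so *Igfbpl1* lay within them and *Nes* above. After adjustment of all ratios for GC content and exon length, *Nes* was 1.73, *Mki67* 1.38, *Eomes* 1.98, *Neurod1* 1.55, *Sox2* -0.87 and *Sox11* -1.65, each still called in the same direction. *Dcx* at 0.17 and *Igfbpl1* at -0.56 were then not called.

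**Figure D4:**
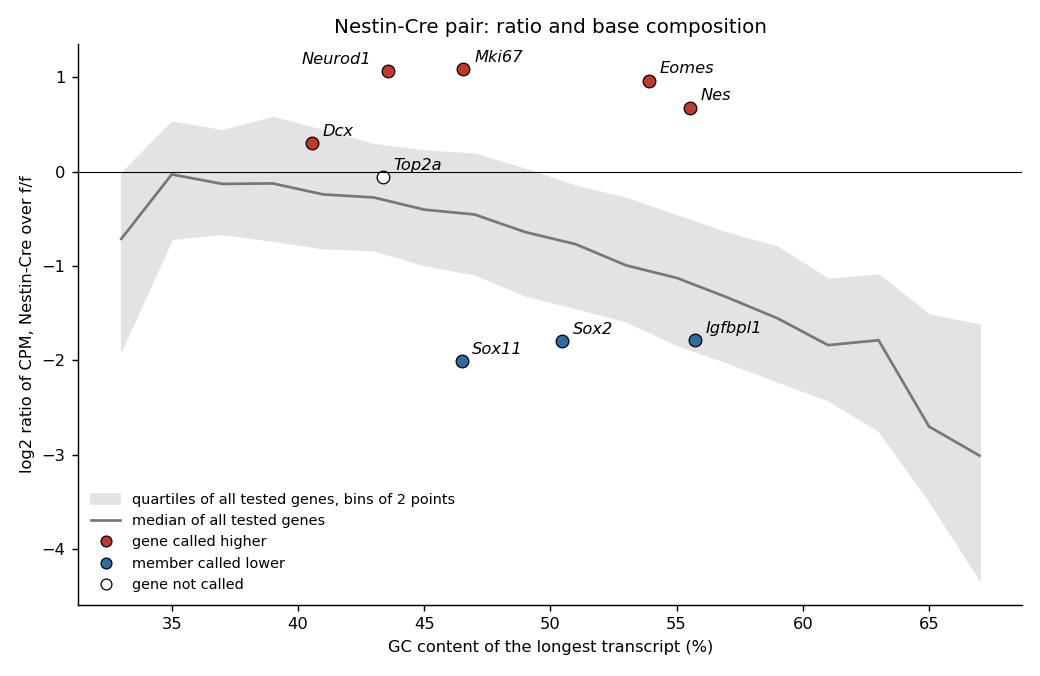
Log2 ratio of the Nestin-Cre pair (CPM, Nestin-Cre over f/f) against the GC content of the longest transcript; the gray line and band are the median and quartiles of all tested genes in bins of 2 percentage points, and points are the 9 genes, colored by call. The median of all genes declines with GC content over most of the range. *Nes* and *Igfbpl1*, with 55.5% and 55.7% GC, lie on opposite sides of it, *Igfbpl1* within the quartile band and *Nes* above it.

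The only spread among samples that the design offers is that of the 3 controls. All 6 libraries were fitted together with edgeR, each altered library against the 3 controls, on the assumption that a lone library varies like a control. Such p-values measure the spread between these control libraries, which come from different experiments and include f/f and WT. In the Nestin-Cre library 7 of the 9 genes passed an FDR of 0.05, as did 47.7% of 18190 genes. Called higher were 5 of them (23.2% of all genes) and called lower 2 (24.6%). The edgeR log2 fold changes were 1.72 for *Mki67* (adjusted p = 0.00032), 1.52 for *Neurod1* (0.00033) and 1.36 for *Nes* (0.00052). They were 1.1 for *Dcx* (edgeR, adjusted p = 0.0064) and 0.77 for *Top2a* (0.026). *Sox2* had -0.87 (edgeR, adjusted p = 0.018) and *Igfbpl1* -0.96 (0.033). *Eomes* at 0.92 (edgeR, adjusted p = 0.133) and *Sox11* at -0.78 (0.192), which varied most between controls, did not pass. Without WT among the controls, *Eomes* (1.26, edgeR adjusted p = 0.023) and *Sox11* (-1.01, 0.033) passed as well. Without f/f of the Olig2-Cre experiment *Top2a* did not pass (edgeR, adjusted p = 0.068), and *Top2a* and *Igfbpl1* did not pass by the Wald test of DESeq2 (adjusted p = 0.0995 and 0.0756).

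Deletion with Olig2-Cre was examined in the same way. In the Olig2-Cre pair *Igfbpl1* was called higher (4.95% of all genes) and *Sox11* lower (6.91%), so that 2 of the 9 genes were called against 11.9% of all genes. The level of *Igfbpl1* was 3.89 CPM in f/f, with a Wilson interval of 3.24 to 4.68. It was 7.68 CPM in the Olig2-Cre library (6.52 to 9.05), which makes the log2 ratio 0.98 (0.61 to 1.35). With f/f of the Nestin-Cre experiment as the control it was 0.51 and not called. *Sox11* went from 6.92 CPM (6.03 to 7.95) to 4.14 CPM (3.31 to 5.17), and its ratio was -0.74 (-1.14 to -0.36), which lay within the differences between controls and was not called after the GC and length adjustment (-0.61). *Eomes* was at 0.81 (0.27 to 1.36) and not called. The other 6 genes had ratios between -0.14 and 0.29, and their counting intervals all included 0. For *Nes*, 303 counts with Olig2-Cre gave an interval of -0.24 to 0.19, and for *Sox2* the interval was -0.22 to 0.07. The edgeR fit against the 3 controls called none of the 9 genes and 0 of 18190 genes in all. An unadjusted p below 0.05 was found for 1 of the 9 and for 1497 of all genes, and DESeq2 called 42 genes, none of the 9. *Igfbpl1* had an edgeR log2 fold change of 0.65 (adjusted p = 0.601).

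Overexpression of *Fto* was examined in the Fto pair. *Igfbpl1* was called higher (6.97% of all genes) and *Dcx* lower (8.51%), again 2 of 9 against 15.5% of all genes. For *Igfbpl1*, WT had 5.44 CPM (4.60 to 6.43) and Fto Tg 8.86 CPM (7.92 to 9.90). The log2 ratio was 0.70 (0.41 to 1.01), and Fto Tg was the highest of the 6 libraries. For *Dcx*, WT had 39.4 CPM (37.0 to 41.9) and Fto Tg 30.8 CPM (29.0 to 32.7). This ratio of -0.35 lay within the differences between controls and was -0.04 after the GC and length adjustment. *Eomes* was also highest in Fto Tg, at 4.50 CPM (3.85 to 5.26) against 2.74 CPM in WT. Its ratio of 0.71 (0.30 to 1.15) was not called, though under TMM (0.73) and under DESeq2 size factors (0.74) it was. *Top2a* at 0.41 (0.08 to 0.75) was not called, and was called higher after the adjustment (0.62). *Sox2* at -0.21 was called lower after the adjustment (-0.35). *Nes* (-0.18), *Mki67* (-0.24), *Neurod1* (0.08) and *Sox11* (-0.21) had counting intervals that included 0. In the edgeR fit none of the 9 genes passed, and 1 gene in all did (0.00550%). Unadjusted p-values were below 0.05 for 2 of the 9 and for 1772 of all genes, and DESeq2 called 76 genes, none of the 9. These 2 of the 9 were *Igfbpl1*, with a log2 fold change of 0.86 (edgeR, adjusted p = 0.464), and *Eomes*, with 1.25 (0.481).

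Ratios larger in size than between any controls were found for 1 gene in the Olig2-Cre pair (33.2% of all genes) and for 2 in the Fto pair (34.0%). *Igfbpl1* was among them in all 3 pairs, with log2 ratios of -1.78, 0.98 and 0.70. The share of all genes with such ratios in all 3 pairs was not counted. After the GC and length adjustment *Igfbpl1* was at -0.56 in the Nestin-Cre pair and not called. The ratio of *Igfbpl1* to *Dcx* per length was 1.34 (1.1 to 1.63) with Olig2-Cre and 1.12 (0.982 to 1.27) in Fto Tg, above the controls at 0.537 to 0.618. Choroid plexus and ependymal markers were followed because these tissues border the hippocampus. The summed level of 7 choroid plexus genes, *Ttr* included, was 2885 and 269 CPM in the Nestin-Cre pair, 2192 and 3431 CPM in the Olig2-Cre pair, and 1653 and 696 CPM in the Fto pair. That of 6 ependymal genes was 26.7 and 18.2 CPM, 25.5 and 40.6 CPM, and 28.4 and 32.8 CPM. As log2 ratios the choroid plexus sums were -3.42 (-2.74 with TMM), 0.65 and -1.25, opposite in sign to *Igfbpl1* in the Fto pair. The ependymal sums were -0.55, 0.67 and 0.21, but in the Nestin-Cre pair the sign turned with TMM (0.13). The part of these tissues in the ratios of *Igfbpl1* was not tested.

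Wider lists of the same stages were counted, to be read in the Nestin-Cre pair against 11.5% of all genes called higher and 53.4% called lower. Of 14 radial glia-like stem cell genes, 3 were called higher and 9 lower, with a median log2 ratio of -0.71 (-0.03 with TMM) against -0.72 (-0.03) for all genes. *Hes5* at -4.12 (-3.43 with TMM) and *Hes1* at -2.25 (-1.57), targets of Notch, were the lowest. *Pax6*, a transcription factor of progenitors, was among those called higher, at 0.55 (1.24). After the GC and length adjustment *Hes5*, *Hes1* and *Pax6* were at -1.93, -1.31 and 0.92. The list median was then -0.08, against -0.01 for all genes. Of 29 cell cycle genes 4 were called higher and 10 lower, with a median of -0.78 (-0.10 with TMM). The ends of this list were the centromere proteins *Cenpf* at 1.30 (1.98) and *Cenpe* at 0.80 (1.48), and the cyclin *Ccnb1* at -2.99 (-2.31) and the kinase *Pbk* at -1.86 (-1.17). *Ccnb1* had only 0.115 CPM in the Nestin-Cre library. Of 24 immature neuron genes 5 were called higher and 13 lower, with a median of -0.38 (0.30 with TMM). The highest were *Ncam1* at 1.49 (2.18), a cell adhesion molecule, and *St8sia2* at 0.94 (1.63), which adds polysialic acid to it. The lowest were *Fxyd7* at -2.70 (-2.01) and *Marcksl1* at -2.07 (-1.39). By edgeR against the 3 controls, where 23.2% of all genes passed higher and 24.6% lower, 3 radial glia-like genes passed higher and 4 lower, 6 cell cycle genes higher and 3 lower, and 8 immature neuron genes higher and 4 lower.

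In the Olig2-Cre pair, 2 radial glia-like genes were called higher and 4 lower, 1 cell cycle gene higher, and 4 immature neuron genes higher and 1 lower (4.95% of all genes were higher and 6.91% lower), with medians of -0.05, 0.17 and 0.06. In the Fto pair these lists had 2 higher and 1 lower, 2 higher and 0 lower, and 4 higher and 0 lower (6.97% and 8.51% of all genes), with medians of -0.05, 0.11 and 0.03. *Hopx*, a gene of quiescent stem cells and astrocytes, was the highest radial glia-like gene in both, at 0.47 and 0.62. *Bub1b* (1.05) was the highest cell cycle gene with Olig2-Cre and *Mcm3* (0.95) in Fto Tg. *Neurog2*, a factor of neuronal commitment, was the highest immature neuron gene in Fto Tg, at 1.27 CPM in WT and 2.55 CPM in Fto Tg (0.99, not called). No gene of these lists passed in the edgeR fit for either library.

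Markers of other cells that share these genes are given beside them for the Nestin-Cre pair, where the scaling turned several directions. All 7 oligodendrocyte progenitor genes tested were called lower by the read test (53.4% of all genes), but 3 of them by edgeR. Their sum was 410 CPM in f/f and 140 CPM with Nestin-Cre, a log2 ratio of -1.55 (-0.87 with TMM), the direction of *Sox2*. The genes of this list differed in size of ratio. *Olig1* was the lowest, at 138 and 16.5 CPM, a log2 ratio of -3.06 (-2.38 with TMM). *Neu4* at -0.63 (0.06) and *Pdgfra* at -0.71 (-0.02) were the highest. With TMM both lay near the median of all genes (-0.03). After the GC and length adjustment *Olig1* was at -1.18, *Neu4* at 0.04 and *Pdgfra* at -0.34, and the list median was -0.34. The 8 astrocyte genes, with 3 called higher and 2 lower (6 and 2 by edgeR), summed to 6396 and 6834 CPM, or 0.10 (0.78 with TMM). Among them *Gfap* was the highest, at 298 and 566 CPM, a log2 ratio of 0.93 (1.61). *Aldh1l1* at -1.56 (-0.87) and *Aldoc* at -1.23 (-0.54) were the lowest. After the adjustment *Aldh1l1* was at -0.51, *Aldoc* at -0.32 and *Gfap* at 2.07. The 13 endothelial and pericyte genes had 3 called higher and 9 lower by the read test, and 4 higher and 1 lower by edgeR. Their sums of 399.6 and 384 CPM gave a log2 ratio of -0.06 that turned to 0.63 with TMM, beside 0.68 and 1.36 for *Nes*. The 6 genes of interneuron precursors from the subventricular zone had 1 called higher and 3 lower by the read test, and 4 higher and 1 lower by edgeR. Their sums of 63.7 and 61.9 CPM gave -0.04, which turned to 0.64 with TMM. The part of these cells in the ratios of the 9 genes was not tested.

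Of 9 mature granule neuron genes 2 were called higher and 3 lower (4 and 2 by edgeR), with a median of -0.24 (0.45 with TMM). Of 8 pyramidal neuron genes 1 was higher and 6 lower (2 and 5 by edgeR), with a median of -1.77 (-1.08 with TMM). Among them *Neurod6*, a relative of *Neurod1* in pyramidal neurons, was at 182 and 869 CPM, a log2 ratio of 2.26 (2.94). Microglia had 1 gene higher and 5 lower of 8 (3 and 5 by edgeR), and Cajal-Retzius cells 0 and 2 of 5 (0 and 1). Blood cells had 0 and 4 of 5 (0 and 4), ependymal cells 1 and 3 of 6 (1 and 1), and choroid plexus 0 and 7 of 7 (0 and 5). After the GC and length adjustment the medians were 0.44 for granule neurons, -0.50 for pyramidal neurons and 0.03 for microglia. They were 0.40 for Cajal-Retzius cells, -1.67 for blood cells, 0.26 for ependymal cells and -1.51 for choroid plexus.

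**Figure D5:**
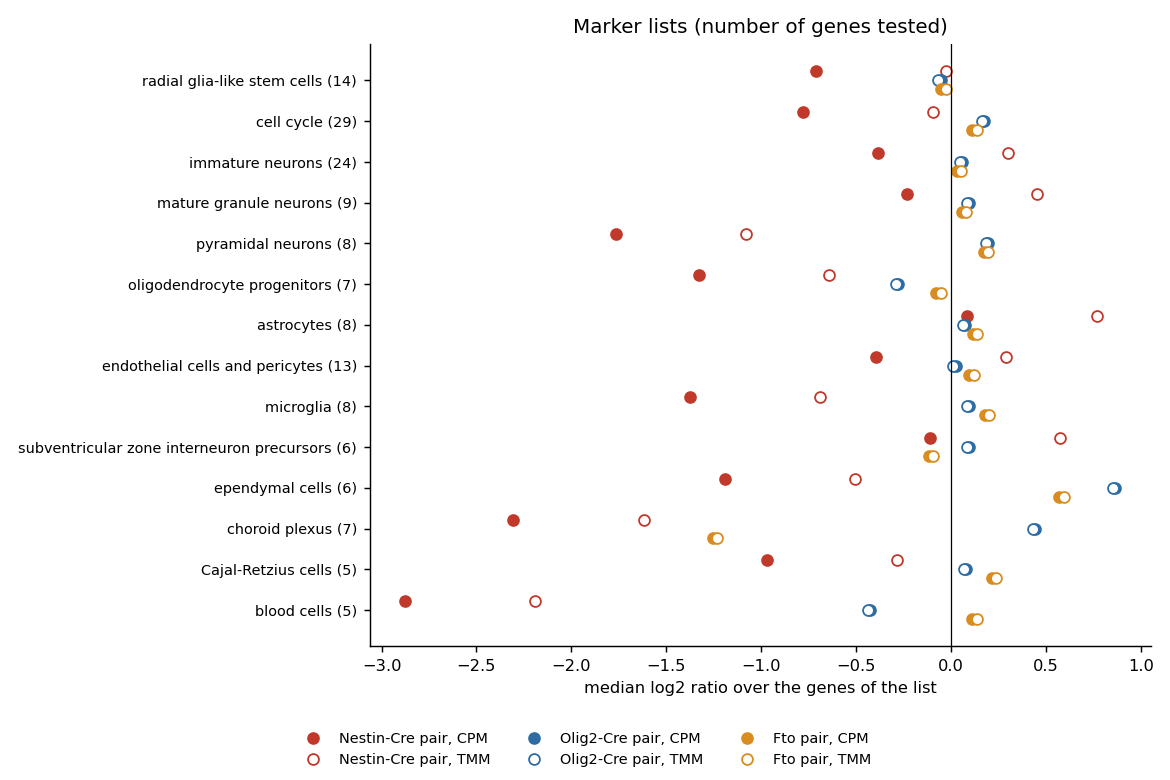
Median log2 ratio of each marker list in the 3 pairs, with CPM (filled) and with TMM scaling (open); the number of genes tested stands in parentheses. In the Nestin-Cre pair the radial glia-like and cell cycle lists, at -0.71 and -0.78, lay near the median of all genes (-0.72), and choroid plexus genes were lower in the Nestin-Cre and Fto pairs and higher in the Olig2-Cre pair.

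Genes with the pattern most like *Dcx* and *Top2a* over the 6 libraries were found by the root mean square difference of centered log2 CPM, among 13353 genes with a mean of at least 2 CPM. Nearest to *Dcx* were *Pdzd2* (0.088), *Spsb3* (0.110) and *Pdzrn3* (0.145). *Pdzd2*, which is also on the mature granule neuron list, had 59.2, 65.4, 36.6, 39.3, 63.4 and 47.3 CPM in f/f, Nestin-Cre, f/f, Olig2-Cre, WT and Fto Tg, and so shared the low values of *Dcx* in both libraries of the Olig2-Cre experiment. Nearest to *Top2a* were *Sst* (0.055), the neuropeptide somatostatin of interneurons, *Cars* (0.070) and *Acot13* (0.080). The ranking took no account of counting error. *Top2a* had 93 counts with Olig2-Cre, a Wilson interval of 4.08 to 6.12 CPM, which is wide beside these differences, so the order is uncertain. *Sst* had 152, 157, 122, 157, 156 and 189 CPM in the same order, highest in Fto Tg as was *Top2a*.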

How the data were processed

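RNA-seq counts of 6 mouse hippocampus libraries were analysed. The authors deposited raw counts of reads for each gene. Reads were trimmed, aligned to mm10 with TopHat (the methods and the submitters' processing notes give different versions, the notes TopHat2 2.0.9), filtered for unique mapping and counted with HTSeq 0.6 in union mode without strand, so reads shared with near-identical copies were lost. Groups came from the genotype labels. Gene coordinates, exon unions and coding sequences came from GENCODE M21 (GRCm38).

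The MARS method of DEGseq was programmed in Python 3.11.15 (numpy 2.4.6, pandas 2.3.3, scipy 1.17.1) from its published formulas. Counts were scaled by library totals, 0.5 was added, and genes with at least 10 counts over a pair were tested across all genes (FDR below 0.001, fold of at least 1.2). No p is given, since it compares 2 libraries. Counting intervals of ratios are exact conditional binomial intervals and those of CPM are Wilson intervals (95%). They cover counting error only. The limit that a count of 0 allows, 3 counts, is 0.0845 to 0.161 CPM in these libraries. All 6 libraries were also fitted with edgeR 4.0.16 (quasi-likelihood F test, TMM, filterByExpr, Benjamini-Hochberg FDR 0.05, R 4.3.3), with 2 residual degrees of freedom from the 3 controls. DESeq2 1.42.0 was an alternative. Both tests were tried on simulated data. For edgeR, a limited set of genes was changed in the simulated Nestin-Cre library, without a shift with GC content. That setting differs from the real Nestin-Cre library, so it does not show how the test performs there.

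The 9 genes and all lists were chosen with earlier results of these data known. Named beyond the 9 genes were, for each list described, at most the 2 highest and 2 lowest by ratio with at least 1 CPM in a control, the 3 genes nearest in pattern to *Dcx* and to *Top2a*, and *Prrc2a* and *Fto*. Other scalings, a GC and length adjustment (a smooth fit over genes with at least 100 counts), no count filter, the other f/f control and leaving out each control were tried.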

Additional observations from a re-analysis of the deposited data

Results flagged for a closer look

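*Igfbpl1* went in opposite directions in the deletion pairs. Its log2 ratio was -1.78 in the Nestin-Cre pair, from 5.38 to 1.55 CPM, and 0.98 in the Olig2-Cre pair, from 3.89 to 7.68 CPM. With 1 library a group, the difference between these ratios was not tested. With the f/f libraries exchanged, the ratio of the Olig2-Cre library was 0.51 and was not called, and after adjustment for GC content and length that of the Nestin-Cre library was -0.56 and was not called.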

How the results depend on the processing

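Of the read-test counts over the 9 genes, that of the Olig2-Cre pair (2) moved by over 1.5 times. It was 1 after the GC and length adjustment, and 5 with f/f of the Nestin-Cre experiment as the control (*Eomes* and *Neurod1* higher, *Sox2*, *Dcx* and *Sox11* lower). Calls over all genes moved too. They were 878 higher and 1226 lower of 17742 genes in the main setting and 593 and 603 of 17447 after the adjustment. With the other control they were 1615 and 1952 of 17988. The cause of these moves was not tested. In the Nestin-Cre pair 6 to 9 genes were called over the alternatives, in the Fto pair 2 to 3, and between controls 7 to 9. Over all genes, the Nestin-Cre pair had 4951 higher and 4956 lower of 17840 after the adjustment, and 5185 and 5465 of 18170 with TMM. The Fto pair had 909 and 722 of 17750 after the adjustment, and 1490 and 1339 of 18051 with TMM. *Top2a* of the Nestin-Cre pair turned from -0.06 to 0.62 with TMM and 0.65 with DESeq2 size factors, a shift that the median of all genes shared. Leaving out each control in turn gave 6 to 9 genes for the Nestin-Cre library by edgeR, 6 without f/f of the Olig2-Cre experiment and 9 without WT, and 0 to 0 for the others. DESeq2 gave 5, 0 and 0. *Eomes* had no adjusted p by DESeq2 in Fto Tg. No paired analysis was possible because each group has 1 library. With 99 to 443 counts for *Mki67* and 40 to 157 for *Eomes*, small ratios of these genes were not detectable at this depth.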
